A study of Homo sapiens with 6 samples.

Results

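Autophagy and lysosome genes are described here as a set of 38, chosen by name as a fixed list of core autophagy, mitophagy and lysosome genes, among 48863 names in the expression table. All 38 were found, each in 1 row. In autophagy a membrane grows around part of the cytoplasm, closes as the autophagosome and fuses with the lysosome, whose acid hydrolases break the content down. The steps are carried out by a kinase complex around ULK1, a lipid kinase complex around PIK3C3, 2 ubiquitin-like conjugation systems, the ATG8 proteins that coat the membrane, and receptors that hold the cargo. In mouse muscle the forkhead factor FOXO3 is known to activate several of these genes, among them those of LC3B, GABARAPL1, ATG12, ULK2 and BNIP3.

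The study measured mRNA by RNA sequencing in 3 libraries of FOXO3A knockout cells, made with small guide RNAs, and in 3 libraries of control cells labelled wild type. FOXO3A is another name of FOXO3. Both groups are labelled U-937 and as acute myeloid leukemia cells; U-937 is a line from a histiocytic lymphoma that is widely used as a model of monocytes. The cells were grown in RPMI1640 with fetal bovine serum and antibiotics. Whether a knockout clone or a pool of edited cells was sequenced is not stated, and no label ties a library to its own culture. The p-values below therefore rest on the spread from library to library within a group, part or all of which may be technical. The comparison is of libraries labelled as knockout with libraries labelled as control, and disruption of FOXO3 was not checked. A difference between clones or cultures cannot be told apart from an effect of the knockout.

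The markers went against the cell label in every library. Of 15 monocyte and macrophage markers, 13 were below 1 FPKM (fragments divided by transcript length and by library size) in every library; the other 2 were CEBPA and CD68, whose row also names EIF4A1. Of 12 T cell markers, 12 were at 1 FPKM or more in every library, and their summed level was 694 to 746 FPKM in the knockout libraries and 616 to 693 FPKM in the control libraries, with 2 of the 12 past the limma threshold as rises. The summed level of 5 B cell markers, of which 3 were below 1 FPKM in every library, was 26.2 to 33.1 FPKM in the knockout libraries and 36.7 to 44.4 FPKM in the control libraries. The part of these differences in the results given here was not tested. The cells are therefore called here by their group alone. FOXO3 itself was at 3.93, 4.13 and 3.45 FPKM in the knockout libraries and at 4.22, 3.63 and 4.27 FPKM in the control libraries, and did not pass the test (log2 difference −0.06, 95% interval −0.29 to 0.17, limma adjusted p = 0.730). An edited gene can keep its mRNA, so this level does not check the label. Depth, estimated from the steps between low values within a preset range of steps, was 4.26 to 4.79 gigabases of aligned sequence in the knockout libraries and 4.37 to 5.71 in the control libraries. At that depth a transcript of 2 kilobases at 1 FPKM stood for 8.51 to 11.4 kilobases of aligned sequence. The second control library lay apart on the first principal component, at 32.2, against 3.92 and 14.6 for the other controls and −20.3 to −11.8 for the knockout libraries.

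**Figure D1:**
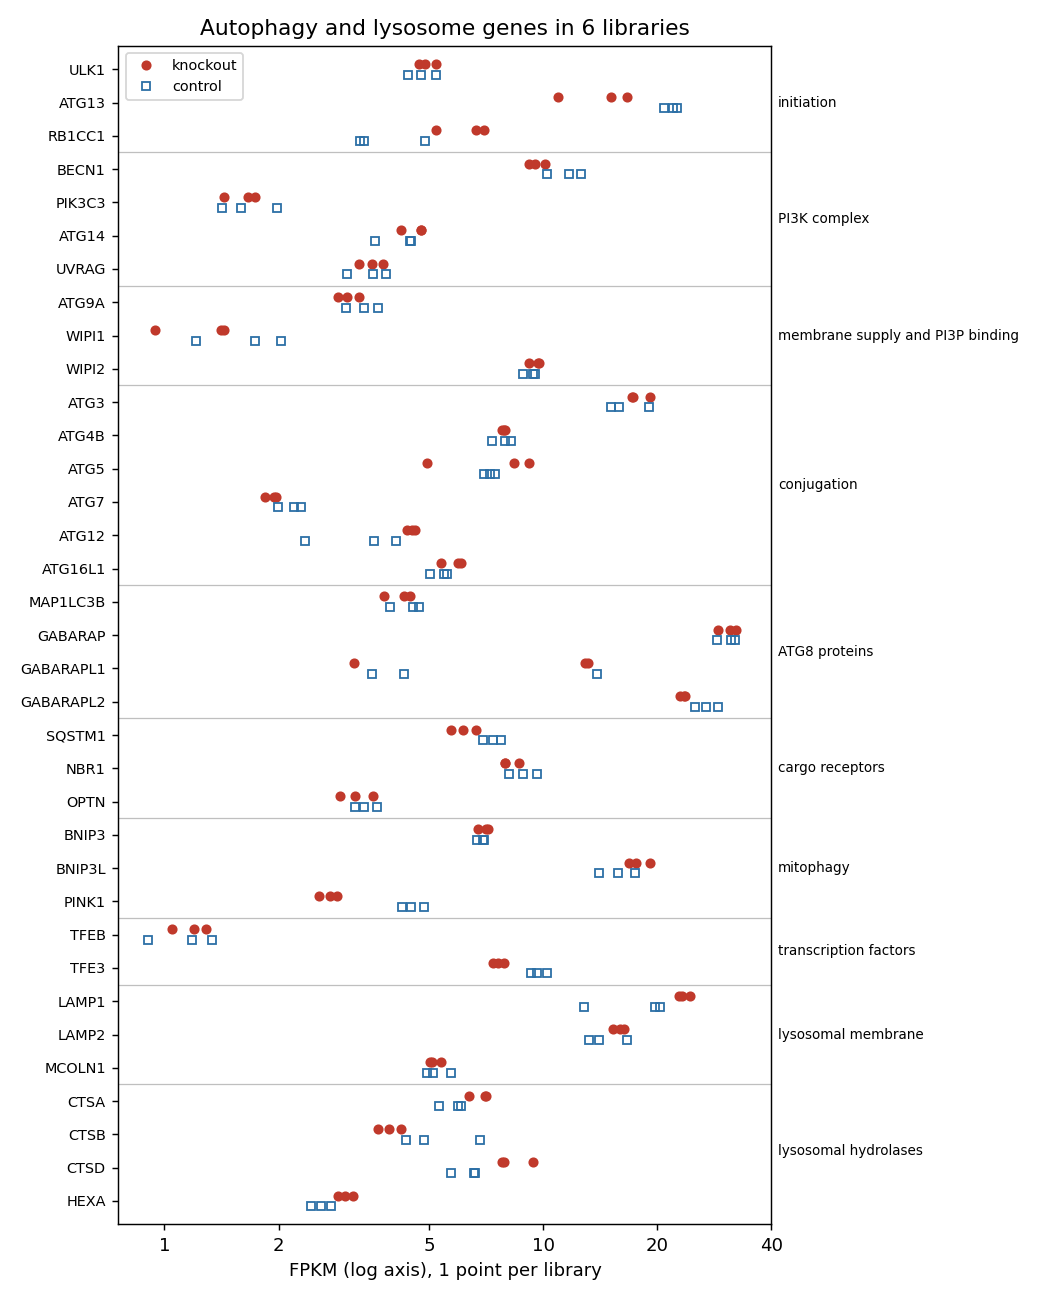
FPKM (log axis) of the 35 tested members in each of the 3 knockout libraries (filled circles) and the 3 control libraries (open squares), grouped by role. PINK1, TFE3 and ATG13 lie lower in every knockout library than in any control library, RB1CC1 and CTSD lie higher, and GABARAPL1 is split into low and high libraries within both groups.

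Of the 38 members, 35 had a mean of at least 1 FPKM and were tested by limma on log2(FPKM + 1), a scale on which changes of low genes look smaller than they are. PINK1 fell, 0 members rose and 34 did not pass the threshold of an adjusted p of 0.05. Among all names 2.35% of 13084 tested names passed it (1.15% as falls and 1.21% as rises), so 1 of 35 members is close to that share. Without adjustment 10 members had a p below 0.05, against 25.1% of all tested names. The groups did not overlap in 14 members, with 6 higher and 8 lower in the knockout libraries, where 31.9% of all tested names did not overlap (17.2% higher and 14.7% lower). The median log2 difference of the tested members was 0.01 and that of all tested names 0.02.

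Promoters of 31 members are in the RefSeq table, which gives 250 bases before and 50 after a start site. The transcription factors TFEB and TFE3 are known to bind the CLEAR element of lysosomal genes, spelled TCACGTGA with a further G before it and C after it, and the shorter forms TCACGTGA and CACGTG. Each longer form contains the shorter ones, and all read the same on both strands. The full element stood in the promoter of 1 member and in 0.353% of all 35116 promoters of the same length. TCACGTGA stood in 4 members (ATG3, LAMP1, MCOLN1 and CTSA) and in 0.980% of all promoters, and CACGTG in 7 members (these and ATG14, BNIP3 and CTSD) and in 7.26%. GTAAACA, a core of the FOXO site, searched on both strands, stood in 1 member, CTSL, and in 3.42% of all promoters. Members were counted by gene, in any of their promoters, out of the 31, while the percentages are of single promoters. A match describes the letters and is no measured binding site. Of the 4 promoters shown here, 3 belong to the lysosomal members LAMP1, CTSA and CTSD, which were higher in every knockout library. MCOLN1 is shown because it holds the full element, and its groups overlapped. ATG3, ATG14 and BNIP3, which also hold CACGTG and are not shown, overlapped between the groups as well. None of the 4 shown passed the limma threshold (adjusted p of 0.192, 0.184, 0.0997 and 0.897, in the order named). Each is written 5′ to 3′ on the strand of the gene, with the longest match at each place in capitals (RefSeq, GRCh38.p14): LAMP1 at chr13:113296989-113297288 on the plus strand, CTSA at chr20:45891085-45891384 on the plus strand, CTSD at chr11:1763878-1764177 on the minus strand and MCOLN1 at chr19:7522374-7522673 on the plus strand.
LAMP1: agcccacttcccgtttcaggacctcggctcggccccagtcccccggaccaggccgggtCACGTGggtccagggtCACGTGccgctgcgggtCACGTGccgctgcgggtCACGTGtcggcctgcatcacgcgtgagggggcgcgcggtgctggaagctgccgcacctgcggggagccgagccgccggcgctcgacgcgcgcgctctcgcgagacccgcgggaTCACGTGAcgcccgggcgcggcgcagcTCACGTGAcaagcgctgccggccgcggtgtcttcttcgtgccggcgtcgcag
CTSA: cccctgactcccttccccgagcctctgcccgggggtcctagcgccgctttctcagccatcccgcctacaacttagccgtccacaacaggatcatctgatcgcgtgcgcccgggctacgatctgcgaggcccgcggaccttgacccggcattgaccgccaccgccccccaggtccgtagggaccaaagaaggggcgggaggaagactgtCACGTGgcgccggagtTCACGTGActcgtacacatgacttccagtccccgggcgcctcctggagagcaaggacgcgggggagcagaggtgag
CTSD: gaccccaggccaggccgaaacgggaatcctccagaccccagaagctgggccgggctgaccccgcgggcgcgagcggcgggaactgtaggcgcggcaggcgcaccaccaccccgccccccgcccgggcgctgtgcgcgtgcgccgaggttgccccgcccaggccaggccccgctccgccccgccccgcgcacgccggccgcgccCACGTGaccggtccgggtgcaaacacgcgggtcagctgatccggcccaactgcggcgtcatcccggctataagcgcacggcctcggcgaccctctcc
MCOLN1: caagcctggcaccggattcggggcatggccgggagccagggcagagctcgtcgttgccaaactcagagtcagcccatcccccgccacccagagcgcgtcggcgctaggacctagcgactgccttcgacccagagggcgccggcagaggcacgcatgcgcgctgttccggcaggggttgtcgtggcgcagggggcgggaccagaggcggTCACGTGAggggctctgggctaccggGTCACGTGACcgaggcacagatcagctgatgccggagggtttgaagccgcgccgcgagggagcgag
LAMP1 held 6 matches to CACGTG, CTSA and MCOLN1 held 2 each and CTSD held 1.

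PINK1, the kinase that marks damaged mitochondria for removal, was the member that passed the test. The gene spans bases 20633455 to 20651511 of chromosome 1 (GRCh38, GENCODE; plus strand) and stands in a row that also names the microRNA gene MIR6084. Its level was 2.73, 2.56 and 2.86 FPKM in the knockout libraries and 4.23, 4.48 and 4.83 FPKM in the control libraries. Every knockout library thus lay below every control library, and the means were 2.72 ± 0.153 and 4.51 ± 0.306 FPKM (SD, n = 3 each). The log2 difference was −0.57 (SE 0.08, 95% interval −0.76 to −0.37, limma adjusted p = 0.0275), and the exact two-sided permutation test gave p = 0.1, the smallest that 3 against 3 libraries allow. The call was lost when any library but the first control was left out, with an adjusted p of 0.0677 to 0.130 and a log2 difference of −0.60 to −0.53. It was also lost with a replicate block (0.119). PINK1-AS, on the other strand, overlaps an exon of PINK1 and shares a row with DDOST. That row was at 32.4, 25.4 and 35.8 FPKM in the knockout libraries and at 25.3, 25.7 and 27.2 FPKM in the control libraries (limma adjusted p = 0.295). Reads of the 2 strands cannot be told apart, since no source used here gives the strand setting. Exons of 19 members overlap a gene on the other strand (GENCODE release 29), and their values are uncertain in the same way. In bulk libraries fewer cells with a transcript and less of it per cell cannot be told apart.

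The other mitophagy members did not pass the test. BNIP3, a receptor of the outer mitochondrial membrane that is induced by low oxygen, was at 6.72 to 7.16 FPKM in the knockout libraries and at 6.67 to 6.99 FPKM in the control libraries (log2 difference 0.02, 95% interval −0.14 to 0.18, limma adjusted p = 0.866). Its relative BNIP3L, which clears mitochondria from maturing red cells, was at 17.5, 19.1 and 16.8 FPKM in the knockout libraries and at 17.4, 14.1 and 15.8 FPKM in the control libraries. The groups overlapped (log2 difference 0.17, SE 0.09, limma adjusted p = 0.310).

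On the log2(FPKM + 1) scale the initiation complex held the largest difference in each direction, and neither passed the test. As a plain ratio of mean FPKM, PINK1 (0.602) was further below 1 than ATG13 (0.653). ATG13, the adaptor of the ULK1 kinase, was at 15.1, 16.6 and 10.9 FPKM in the knockout libraries and at 21.9, 20.8 and 22.5 FPKM in the control libraries. All 3 knockout libraries were lower (log2 difference −0.60, SE 0.15, limma adjusted p = 0.0781, exact permutation p = 0.1). RB1CC1, which encodes the scaffold protein FIP200 of the same complex, was at 6.98, 6.66 and 5.21 FPKM in the knockout libraries and at 4.87, 3.28 and 3.35 FPKM in the control libraries. All 3 knockout libraries were higher (log2 difference 0.60, SE 0.16, limma adjusted p = 0.0911, exact permutation p = 0.1). The adjusted p was 0.0378 without the first control, which had the highest control value. That was the 1 setting of 18 others in which RB1CC1 passed, and its adjusted p reached 0.258. The ratio of ATG13 to RB1CC1, chosen after their values were seen, was at most 2.50 in the knockout libraries and 4.50 to 6.71 in the control libraries. Since neither gene overlapped and they differed in opposite directions, the ratio had to separate the groups, and it adds no support. The genes of the kinases themselves overlapped between the groups. ULK1 was at 4.70 to 5.20 FPKM in the knockout libraries and at 4.41 to 5.21 FPKM in the control libraries (log2 difference 0.04, 95% interval −0.17 to 0.24), and ULK2 was near the floor, at no more than 0.0336 FPKM in the knockout libraries and 0.0160 FPKM in the control libraries.

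**Figure D2:**
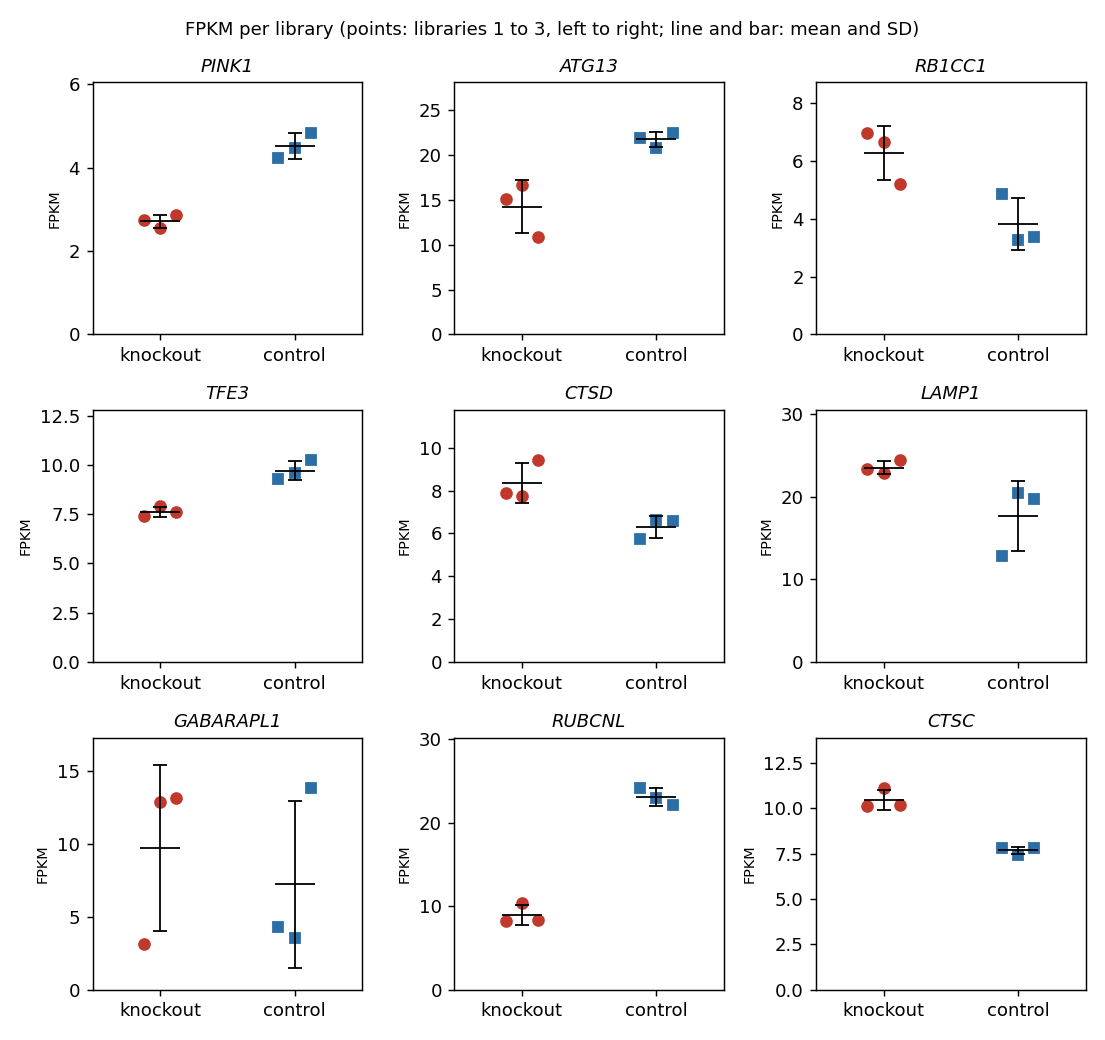
FPKM per library for 7 members and for RUBCNL and CTSC, with knockout libraries on the left and control libraries on the right of each panel; points are the 3 libraries, and the line and bar are their mean and SD. The groups do not overlap in any panel other than that of GABARAPL1, where both groups hold libraries near 3 to 4 FPKM and near 13 FPKM.

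In the lipid kinase complex BECN1 was the member whose groups did not overlap. This gene of Beclin 1, the regulatory subunit that BCL2 can hold, was at 9.53, 10.1 and 9.18 FPKM in the knockout libraries and at 10.2, 11.7 and 12.6 FPKM in the control libraries (log2 difference −0.23, SE 0.09, limma adjusted p = 0.177). PIK3C3, the catalytic subunit, was at 1.43 to 1.73 FPKM in the knockout libraries and at 1.42 to 1.98 FPKM in the control libraries. Its adjusted p was 0.893, and 0.0491 with the length and GC trend removed, where its log2 difference was −0.29. That was the 1 setting of 17 others in which PIK3C3 passed, and its adjusted p reached 0.936. ATG14, which directs the complex to the growing membrane, and UVRAG, which directs it to endosomes, overlapped between the groups (limma adjusted p = 0.528 and 0.936). The same held for ATG9A, the lipid scramblase of the vesicles that seed the membrane, and for WIPI1 and WIPI2, which bind the lipid that PIK3C3 makes (adjusted p of 0.390 to 0.749). The row of ATG9A also names ABCB6. Levels in this step ran from WIPI1, at 0.946 to 1.43 FPKM in the knockout libraries and 1.21 to 2.03 FPKM in the control libraries, up to WIPI2, at 9.17 to 9.74 FPKM in the knockout libraries and 8.85 to 9.51 FPKM in the control libraries.

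Of the 6 conjugation genes, 0 passed the test (0 at an unadjusted p below 0.05). ATG12, the ubiquitin-like protein joined to ATG5, was at 4.50, 4.57 and 4.36 FPKM in the knockout libraries and at 4.07, 2.35 and 3.58 FPKM in the control libraries. The groups did not overlap (log2 difference 0.36, SE 0.16, limma adjusted p = 0.221), and the second control was lowest. Without the second control the difference was 0.18, with the length and GC trend removed 0.10, and with both −0.01. ATG7, the E1-like enzyme that activates ATG12 and the ATG8 proteins, was at 1.97, 1.85 and 1.95 FPKM in the knockout libraries and at 1.99, 2.20 and 2.30 FPKM in the control libraries. The groups did not overlap, by a narrow margin (log2 difference −0.11, SE 0.08, limma adjusted p = 0.415). ATG3, the E2-like enzyme for ATG8 proteins, was the most abundant of the step per length, at 17.2, 17.2 and 19.1 FPKM in the knockout libraries and 15.1, 15.9 and 19.0 FPKM in the control libraries (adjusted p = 0.585). ATG5 was at 4.93, 9.18 and 8.34 FPKM in the knockout libraries and at 7.45, 6.96 and 7.23 FPKM in the control libraries. The first knockout library was thus below all controls and the others above them (log2 difference 0.01, 95% interval −0.48 to 0.49). ATG4B, the protease that prepares ATG8 proteins, had a log2 difference of 0.01 (95% interval −0.16 to 0.17), and ATG16L1, which places the conjugation machinery on the membrane, had 0.10 (−0.09 to 0.29).

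The ATG8 family was led by GABARAP and GABARAPL2. GABARAP, in a row that also names CTDNEP1 and CLDN7, was at 28.9, 31.1 and 32.3 FPKM in the knockout libraries and at 28.7, 32.1 and 31.2 FPKM in the control libraries (limma adjusted p = 0.976, 95% interval of the log2 difference −0.17 to 0.18). GABARAPL2 was at 23.6, 23.0 and 23.6 FPKM in the knockout libraries and at 25.1, 28.9 and 26.9 FPKM in the control libraries. All 3 knockout libraries were lower (log2 difference −0.20, SE 0.07, limma adjusted p = 0.152, exact permutation p = 0.1). MAP1LC3B, the gene of LC3B and the usual marker of autophagosomes, was at 3.79 to 4.46 FPKM in the knockout libraries and at 3.94 to 4.70 FPKM in the control libraries (log2 difference −0.06, 95% interval −0.28 to 0.17). Its value is uncertain because it shares sequence with MAP1LC3B2. GABARAPL1 was at 3.16, 12.9 and 13.1 FPKM in the knockout libraries and at 4.29, 3.54 and 13.8 FPKM in the control libraries. Low and high libraries thus stood in both groups, and the 95% interval of the log2 difference ran from −1.12 to 1.91 (limma adjusted p = 0.723). It made up 5.28% to 18.2% of the summed FPKM of the 4 family members in the knockout libraries and 5.18% to 18.1% in the control libraries. GABARAPL1 shares sequence with a processed copy, which also makes its value uncertain.

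All 3 cargo receptors among the members had a lower mean in the knockout libraries, and 0 passed the test. A negative log2 difference was also seen in 6145 of the 13084 tested names, and 3 genes are too few to set this list apart. The cargo receptor TAX1BP1, outside the members, went the other way (log2 difference 0.53, limma adjusted p = 0.0639). Of the 13 other selective autophagy genes tested, 7 were higher and 6 lower. SQSTM1, the gene of p62, which links ubiquitin to ATG8 proteins, was at 5.71, 6.12 and 6.64 FPKM in the knockout libraries and at 6.93, 7.37 and 7.75 FPKM in the control libraries. The groups did not overlap (log2 difference −0.22, SE 0.08, limma adjusted p = 0.163, exact permutation p = 0.1). NBR1, a receptor of related build, was at 7.92 to 8.64 FPKM in the knockout libraries and at 8.10 to 9.63 FPKM in the control libraries. OPTN, a receptor for damaged mitochondria and bacteria, was at 2.91 to 3.55 FPKM in the knockout libraries and at 3.18 to 3.65 FPKM in the control libraries. Both overlapped (log2 difference −0.10 and −0.06, limma adjusted p = 0.485 and 0.699).

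Of the factors that switch on lysosomal genes, TFE3 was lower in every knockout library and fell short of the threshold. It was at 7.39, 7.89 and 7.61 FPKM in the knockout libraries and at 9.27, 9.60 and 10.2 FPKM in the control libraries (log2 difference −0.31, SE 0.07, limma adjusted p = 0.0669, exact permutation p = 0.1). The adjusted p was 0.0492 with upper-quartile scaling, 0.0455 with quantile normalization and 0.0369 with the length and GC trend removed. These 3 were the ones that passed among 18 other settings, and the highest adjusted p of the 18 was 0.199. TFEB was much lower in level per length, at 1.29, 1.04 and 1.20 FPKM in the knockout libraries and at 0.904, 1.18 and 1.33 FPKM in the control libraries. Its groups overlapped (log2 difference 0.03, 95% interval −0.22 to 0.28).

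Lysosomal members had differences of either sign, and 0 of 7 tested passed the test (3 at an unadjusted p below 0.05, where 25.1% of all tested names lay). LAMP1, the main glycoprotein of the lysosomal membrane, was at 23.3, 22.8 and 24.4 FPKM in the knockout libraries and at 12.8, 20.4 and 19.8 FPKM in the control libraries. All 3 knockout libraries were higher, and the first control was lowest (log2 difference 0.42, SE 0.17, limma adjusted p = 0.192; 0.22 and 0.0988 without the first control). CTSD, the aspartic protease cathepsin D, in a row with IFITM10, was at 7.87, 7.76 and 9.41 FPKM in the knockout libraries and at 5.72, 6.62 and 6.56 FPKM in the control libraries (log2 difference 0.35, SE 0.10, limma adjusted p = 0.0997). With the length and GC trend removed, its adjusted p was 0.0447. Of 17 other settings for CTSD, that 1 passed, and the adjusted p reached 0.218. CTSA, the protective protein that stabilises lysosomal galactosidase, was at 6.38, 7.02 and 7.06 FPKM in the knockout libraries and at 5.29, 5.97 and 6.07 FPKM in the control libraries (log2 difference 0.21, SE 0.08, limma adjusted p = 0.184). HEXA, the alpha subunit of hexosaminidase that degrades gangliosides, in a row with PARP6 and CELF6, was at 2.87 to 3.15 FPKM in the knockout libraries and at 2.43 to 2.75 FPKM in the control libraries (log2 difference 0.16, SE 0.08, limma adjusted p = 0.259). The groups did not overlap in these 4 genes, whose knockout libraries were the higher ones. Of all tested names 17.2% were higher in this way and 31.9% did not overlap in either direction. CTSB, the cysteine protease cathepsin B, ran the other way, at 3.91, 3.66 and 4.22 FPKM in the knockout libraries and at 4.35, 6.80 and 4.84 FPKM in the control libraries. Its difference was −0.34 (SE 0.15, limma adjusted p = 0.219), and −0.18 without the second control, which was highest.

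LAMP2, which is needed for fusion and chaperone-mediated autophagy, was at 15.3 to 16.3 FPKM in the knockout libraries and at 13.2 to 16.6 FPKM in the control libraries (limma adjusted p = 0.485). MCOLN1, the calcium channel whose opening activates TFEB, in a row with PNPLA6, was at 5.03, 5.07 and 5.37 FPKM in the knockout libraries and at 5.10, 4.94 and 5.71 FPKM in the control libraries. Its log2 difference was −0.02 (95% interval −0.21 to 0.17). CTSZ and CTSL, cathepsins that macrophages hold in quantity, were below the filter. CTSZ was at 0.262 ± 0.0737 FPKM in the knockout libraries and at 0.234 ± 0.0649 FPKM in the control libraries (SD, n = 3 each). CTSL was at the floor of 0.0001 in 2 knockout libraries and at 0.0939 FPKM in the other, and at 0.0326 to 0.128 FPKM in the control libraries.

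**Figure D3:**
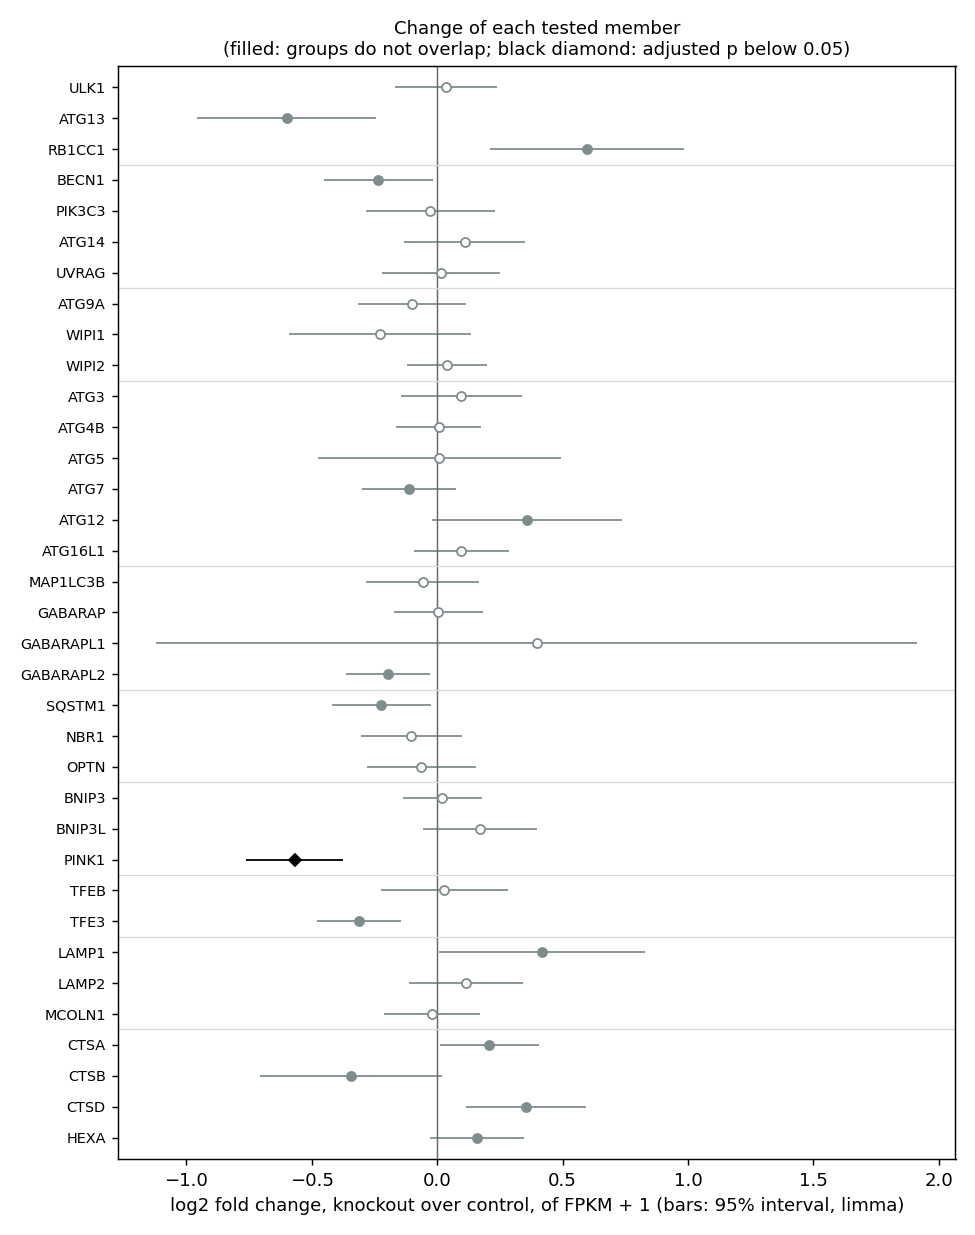
Log2 fold change, knockout over control, of FPKM + 1 for the 35 tested members, with the 95% interval from limma; members run down the page by role, filled symbols mark groups that do not overlap, and the black diamond marks an adjusted p below 0.05. PINK1 is the black diamond at −0.57, ATG13 and RB1CC1 lie near −0.60 and 0.60, and GABARAPL1 has the widest interval.

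Of 10 members known as FOXO targets in autophagy from mouse muscle and other cells, 9 were tested. PINK1 fell, 0 rose and 8 did not pass the test, with 5 higher and 4 lower in the knockout libraries and a median log2 difference of 0.01. BECN1 and PINK1 were lower in every knockout library and ATG12 higher in every one. Of all tested names 2.35% passed the test and 31.9% did not overlap, so 3 of 9 without overlap is close to that share. MAP1LC3B, GABARAPL1, ATG4B, PIK3C3, BNIP3 and BNIP3L overlapped between the groups, and ULK2 was near the floor.

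Further genes of the pathway were taken from 8 lists with 170 genes in the table, of which 149 were tested. RUBCNL fell, CTSC rose and 147 did not pass the test, against 1.15% falls and 1.21% rises over the whole table. Of the 149, 87 were higher and 62 lower in the knockout libraries (58.4% higher, against 53.0% of all tested names), with a median log2 difference of 0.04 against 0.02 over all tested names. The groups did not overlap in 39 of them, 24 higher and 15 lower, against 31.9% of all names. With the length and GC trend removed, the median log2 difference was 0.0105 for the further lists and −0.0058 for all names. Without the second control these medians were 0.0117 and −0.0013.

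RUBCNL had the largest change of all genes in these lists. It encodes Pacer, which promotes the maturation of autophagosomes by countering Rubicon, and spans bases 46342000 to 46438190 of chromosome 13 (GRCh38, GENCODE; minus strand). Its level was 8.21, 10.4 and 8.40 FPKM in the knockout libraries and 24.2, 23.0 and 22.1 FPKM in the control libraries, in a row that also names the pseudogene PPP1R2P4. The means were 8.99 ± 1.19 and 23.1 ± 1.04 FPKM (SD, n = 3 each), far apart relative to that spread. The log2 difference was −1.28 (SE 0.10, limma adjusted p = 0.00380, exact permutation p = 0.1), and the call was kept with each library left out (adjusted p 0.00752 to 0.0255). The other 21 tested core autophagy genes did not pass the test, and 13 of the 22 (59.1%) were higher, against 53.0% of all tested names.

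CTSC, which encodes cathepsin C, the protease that activates granzymes and other granule serine proteases, rose among 34 tested hydrolases and activators. The gene spans bases 88293592 to 88337787 of chromosome 11 (GRCh38, GENCODE; minus strand). Its level was 10.1, 11.1 and 10.2 FPKM in the knockout libraries and 7.80, 7.45 and 7.81 FPKM in the control libraries (10.5 ± 0.560 and 7.69 ± 0.204, SD, n = 3 each). Every knockout library was higher (log2 difference 0.40, SE 0.07, limma adjusted p = 0.0451). The call was lost without any library but the first control (adjusted p 0.0933 to 0.177), with the replicate block (0.125) and with the length and GC trend removed (0.0548). The remaining 33 did not pass the test, and PSAP, the precursor of the saposins that activate lipid hydrolases, was the most abundant of the list at 188 to 199 FPKM in the knockout libraries and 183 to 202 FPKM in the control libraries.

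In the other 6 lists 0 of 93 tested genes passed the limma test. Of these, 12 had an unadjusted p below 0.05, a smaller share than the 25.1% of all tested names. Of 18 other lysosomal membrane proteins 11 (61.1%) were higher. Among them LAPTM5, a lysosomal protein of blood cells that lowers T cell receptor levels, was at 58.5, 59.5 and 63.6 FPKM in the knockout libraries and at 43.4, 45.8 and 49.6 FPKM in the control libraries (log2 difference 0.38, SE 0.07, limma adjusted p = 0.0534). OSTM1, the partner of the lysosomal chloride transporter, had a log2 difference of 0.54 (SE 0.12, adjusted p = 0.0652). Of 18 subunits of the V-ATPase, the proton pump that acidifies the lysosome, 12 were higher (66.7%, against 53.0% of all tested names), with a median log2 difference of 0.08. The smallest p values there were those of ATP6V1C1, at 12.6 ± 0.837 FPKM in the knockout libraries and 8.26 ± 1.42 FPKM in the control libraries (SD, n = 3 each, limma adjusted p = 0.0660), and ATP6AP2 (adjusted p = 0.0907). In both the knockout libraries were higher without overlap.

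Among 13 other selective autophagy genes, the cargo receptor TAX1BP1 had a log2 difference of 0.53 (SE 0.12, limma adjusted p = 0.0639) and the mitochondrial receptor FKBP8 one of −0.29 (SE 0.07, adjusted p = 0.0807). Of 9 sorting genes, IGF2R, the large receptor that carries hydrolases with mannose 6-phosphate to the lysosome, was at 12.8 ± 1.19 FPKM in the knockout libraries and at 18.9 ± 2.07 FPKM in the control libraries (SD, n = 3 each). All 3 knockout libraries were lower (log2 difference −0.53, SE 0.11, limma adjusted p = 0.0554). NAGPA, which uncovers that sugar tag, had a log2 difference of 0.32 (adjusted p = 0.206). The fusion genes VPS39 and VPS16, subunits of the HOPS tether, had log2 differences of −0.25 and −0.13 (adjusted p = 0.248 and 0.281), and 6 of 10 genes of that list were higher, against 53.0% of all tested names.

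**Figure D4:**
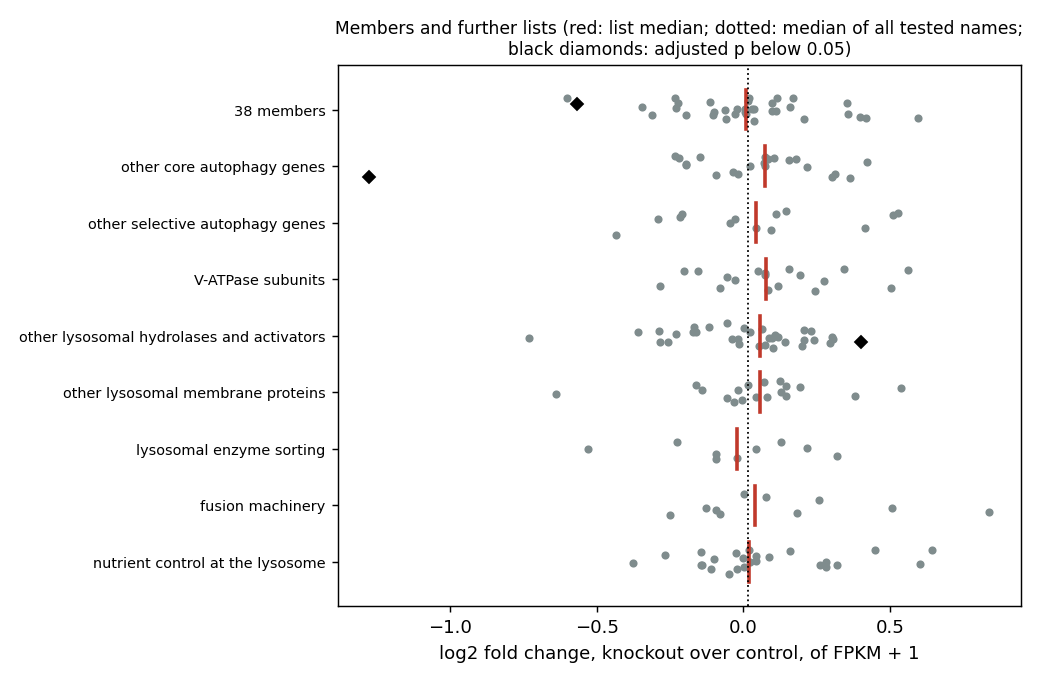
Log2 fold change, knockout over control, of FPKM + 1 for tested genes of the member set and of the 8 further lists, 1 point per gene; red lines are list medians, the dotted line is the median of all tested names, and black diamonds are genes with an adjusted p below 0.05. The diamonds are PINK1, RUBCNL and CTSC, and the list medians lie between −0.02 and 0.08.

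GC content moved with the comparison over the whole table. Across 12984 tested names, which are not independent replicates, the log2 difference was lower at higher GC content of the transcripts (Spearman rho −0.38 with all libraries, −0.30 when the second control is left out). Across the 35 tested members, which share the same 6 libraries, it was −0.16. The transcripts of PINK1 had a GC content of 60.4% and those of CTSC 45.5%. With the trend removed, the log2 difference of PINK1 was −0.55 (limma adjusted p = 0.00971), that of RUBCNL −1.34 (0.00341) and that of CTSC 0.30 (0.0548). The sign of the difference turned in 6 of 35 members, none of them past the threshold in either fit. With the trend removed the log2 difference was −0.04 for ATG14, −0.11 for UVRAG, −0.04 for ATG3, −0.27 for ATG5, −0.16 for LAMP2 and 0.03 for MCOLN1.

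**Figure D5:**
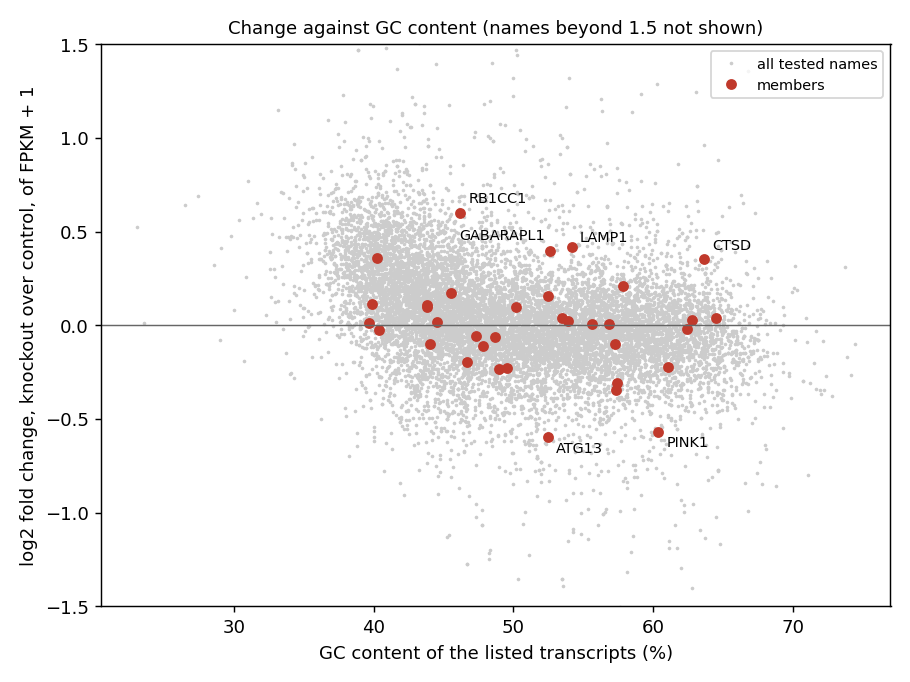
Log2 fold change, knockout over control, of FPKM + 1 against the mean GC content of the listed transcripts, for all tested names (grey) and the tested members (red). The grey cloud is higher at low GC content (rho −0.38), and PINK1 and ATG13 lie below most names of like GC content.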

How the data were processed

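RNA sequencing of 6 libraries, 3 labelled FOXO3A knockout and 3 control, was used as 1 deposited table of FPKM values per gene or assembled locus, which the authors made with 1 column per library, per the file headers. The submitters' processing notes name hg38 as build and HTSeq, Cufflinks 2.1.1 and Bowtie 0.12.9 as tools, without saying what each did. How shared reads and strand were handled is not given in those sources. A value of exactly 0.0001 was treated as a floor. Each name was given the sum of the distinct rows that held it after splitting on semicolons (4872 repeats dropped, 48863 names left), so a row naming several genes counted for each of them.

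Knockout was compared with control by limma 3.58.1 (R 4.3.3), fitted to log2(FPKM + 1) with no covariate and with the prior variance following the mean level. Two-sided p-values of the 13084 names averaging at least 1 FPKM were adjusted together by the Benjamini-Hochberg method, with a threshold of 0.05. On simulated data of that size, 133 genes were called, 7 of them falsely. The share recovered was 30% of 50 genes with a 1.5-fold change, 60% with a 2-fold, 78% with a 3-fold and 84% with a 4-fold change. The simulated noise was drawn for each gene on its own, without the GC trend or shifts shared by a library. These shares therefore do not give the false calls or the recovery in the real comparison. FPKM holds no counts, so no count model was run. The steps between low values, read as 1 aligned base (chance puts 20% of the low values within 0.1 of a whole step, and 77.9% to 79.0% lay there), gave the depth. Steps were searched only within a preset range. A larger step that is a whole multiple of the one found could fit as well and would give a lower depth. The members and lists were chosen with earlier results of these data known. Full values were given for members past the threshold, members whose groups did not overlap, and those among the 6 largest changes or among the 6 highest levels; of each further list, for genes past the threshold or else the 2 with the smallest p. Transcript length and GC content came from GENCODE release 29, with 98.99% of the listed transcript identifiers found, and promoters from RefSeq (GRCh38.p14). Tables and plots were made with pandas 2.3.3 and matplotlib 3.10.9 in Python 3.11.15. The values of the tested members, FOXO3, RUBCNL and CTSC and the counts of calls were recomputed with another pseudocount, filter or scaling, without the variance trend, with a replicate block, with other rows per name, after subtracting a spline fit on length and GC content, and leaving out each library in turn.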

Additional observations from a re-analysis of the deposited data

How the results depend on the processing

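Of 645 recomputed values for 37 genes (the 35 tested members, RUBCNL and CTSC) under 18 other settings, 623 stayed on their side of the limma threshold, 16 fell short of it, 6 newly passed it and 0 called values changed direction. The 16 were those of PINK1 and CTSC, with adjusted p of 0.0506 and 0.0576 with no filter and 0.119 and 0.125 with the replicate block. RUBCNL stayed past it in every setting that gave it a value, with a highest adjusted p of 0.0477, under the block. The settings that passed a further member were upper-quartile scaling (TFE3), quantile normalization (TFE3), removal of the length and GC trend (TFE3, CTSD and PIK3C3, which was lower) and leaving out the first control (RB1CC1). TFE3, CTSD and PIK3C3 did not pass with the trend removed and the second control left out. FOXO3 stayed short of the threshold in 17 of 17 settings.

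Counted over the whole table, 642 names passed with quantile normalization, 33 with the replicate block, 791 with the length and GC trend removed and 75 to 998 with 1 library left out, against 308 with the settings of the report. For the members the count was 0 with no filter, 0 with only names at a mean of 5 FPKM or more (which leaves PINK1 untested), 2 with either scaling, 0 with the block, 4 with the trend removed and 0 to 2 with 1 library left out. It was 0 with rows naming several genes kept as loci of their own, where the locus that holds PINK1 had an adjusted p of 0.0277. For the further lists the count was 1 with no filter, 4 at 5 FPKM or more, 4 with quantile normalization, 1 with the block, 1 with rows naming 1 gene only, 8 with the trend removed and 1 to 8 with 1 library left out. With the trend removed and the second control also left out, 247 names passed over the whole table. Among these were 1 member, PINK1, and 3 genes of the further lists. The split of all calls was 158 rises and 150 falls, and with upper-quartile scaling 178 and 277. Same-numbered libraries of the 2 groups were not treated as pairs: their deviations correlated at 0.10, −0.04 and 0.02. The cause of these differences was not tested. Depth limits the genes with the lowest values, ULK2, CTSL and CTSZ, which were not tested.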

Other observations

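Genes that control autophagy from the lysosomal surface were measured as well. Of the 25 tested genes of the mTORC1, Rag, LAMTOR, folliculin, TSC and AMPK group, 0 passed the limma threshold (3 at an unadjusted p below 0.05, where 25.1% of all tested names lay), with 14 higher and 11 lower in the knockout libraries and a median log2 difference of 0.02. The group has 2 further genes below the filter, among them MITF, a relative of TFEB, at no more than 0.0174 FPKM in any knockout library and 0.0206 FPKM in any control library. PRKAA1, the alpha 1 catalytic subunit of the energy sensor AMPK, was at 8.39, 9.19 and 7.80 FPKM in the knockout libraries and at 6.43, 3.92 and 5.03 FPKM in the control libraries (log2 difference 0.64, SE 0.16, limma adjusted p = 0.0766). PRKAB1, the beta 1 subunit of the same kinase, was at 10.8, 10.5 and 11.5 FPKM in the knockout libraries and at 8.29, 9.12 and 9.05 FPKM in the control libraries (log2 difference 0.28, SE 0.07, limma adjusted p = 0.0837). In both genes every knockout library lay above every control library.

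Among promoters of all tested names in the RefSeq table, the 209 names with TCACGTGA had a median log2 difference of 0.05, with 1 rise and 1 fall past the limma threshold. The 276 names with GTAAACA, a core of the FOXO binding site, or its complement had a median of 0.07, with 6 rises and 2 falls. Of all 13084 tested names, with or without a promoter in the RefSeq table, 1.21% rose and 1.15% fell. The median of all 8503 tested names with a promoter in that table was 0.03. The share that was higher in the knockout libraries was 62.7% of names with TCACGTGA, 59.4% of those with GTAAACA and 55.4% of the 8503. No test of these shares was made. Nor were the names matched for GC content, with which the log2 difference moved over the whole table (Spearman rho −0.38).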
